A study of Mus musculus with 30 samples.

Results

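The 45 genes described here encode the machinery of cell division: mitotic kinases, kinesin motors, kinetochore proteins, and the spindle, cytokinesis and cyclin genes that work with them. They were chosen by name, and each was read from its brightest probe set that maps to a single gene symbol. All 45 were found among the 18194 genes of the arrays. The mean over all 30 arrays of 44 of them reached the minimum used for testing, as it did for 12675 genes in all. Kif14, a cytokinesis kinesin, had a mean of 3.75 on the log2 scale and was not tested. By role the tested members are 10 kinases, 8 kinesins, 10 kinetochore genes, 9 spindle and cytokinesis genes, 4 genes of the cyclin B and anaphase-promoting steps, and 3 genes often read as marks of proliferation.

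The cells were mouse embryonic fibroblasts of embryonic day 13.5 on a C57BL/6 x 129SvJ background, homozygous for p53 LSL, an allele that a lox-stop-lox cassette keeps silent until Cre recombinase removes the cassette. In the time course they received for 24 h either AdenoCRE, an adenovirus with Cre that restores p53, or AdenoGFP, its control with a green fluorescent protein, and then 500 nM doxorubicin, a drug that breaks DNA. There was 1 array for each virus at 0 h (untreated), 1, 3, 6 and 9 h. In both siRNA experiments every cell had AdenoCRE for 24 h, siRNA for 24 h and 100 nM doxorubicin for 13 h, so the controls also had restored p53 and DNA damage. The lincP21KD experiment had 3 siP53 arrays, 3 siLincP21 arrays (against lincRNA-p21, a long noncoding RNA that p53 induces) and 2 siScramble arrays. The hnRNPKKD experiment had 3 arrays each of siRNA against p53, lincp21 and hnRNPK (an RNA-binding protein, gene Hnrnpk) and of a control siRNA. The viruses differ in Cre and GFP as well as in p53, and these cannot be told apart in the time course. The time course has no replicates. Its p-values between the viruses measure how evenly a difference held over the times, with the untreated 0 h pair counted as one of them. Its p-values for slopes measure the scatter about a straight line. The labels do not say whether replicates in the siRNA experiments were separate cultures. There the p-values measure the spread between these arrays, which may be technical.

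Entry into mitosis is driven by Cdk1 with B-type cyclins and by the Aurora and Polo kinases, while kinesins build and move the spindle and the kinetochore joins each chromosome to it. Most of these genes are transcribed in G2 and mitosis, when the MuvB complex with B-Myb and FoxM1 switches them on. In resting or p53-arrested cells the same promoters are held silent by the DREAM complex, which binds a short element called the cell cycle genes homology region (CHR), and many also carry CCAAT boxes bound by NF-Y. p53 acts on this system largely through p21 (gene Cdkn1a), which inhibits cyclin-dependent kinases.

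Promoters of 6 members are shown first, since both elements are known from many mitotic promoters. They are the 2 kinases, 2 kinesins and 2 kinetochore genes with the largest fitted change between the viruses among those with an entry in the promoter table (Aurkb, for one, has none), whether or not the change was called, with 250 bases before and 50 bases after the annotated transcription start, from RefSeq on GRCm38.p6, and thus hold the upstream region and the start of the first exon. The letters TTTGAA and TTCGAA (forms of the CHR) and CCAAT were searched on both strands and are in capitals, so TTCAAA and ATTGG are matches on the other strand. A CCAAT and a CHR match can overlap by 1 base. Bub1, a spindle checkpoint kinase, lies at chr2:127831810-127832109, minus strand, and Ttk, the checkpoint kinase also called Mps1, at chr9:83834439-83834738, plus strand.
Bub1: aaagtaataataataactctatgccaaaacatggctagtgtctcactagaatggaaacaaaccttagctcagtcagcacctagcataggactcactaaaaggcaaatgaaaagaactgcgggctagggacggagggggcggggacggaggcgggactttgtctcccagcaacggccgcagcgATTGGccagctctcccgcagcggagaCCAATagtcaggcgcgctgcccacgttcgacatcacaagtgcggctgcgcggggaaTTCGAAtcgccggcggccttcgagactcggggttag
Ttk: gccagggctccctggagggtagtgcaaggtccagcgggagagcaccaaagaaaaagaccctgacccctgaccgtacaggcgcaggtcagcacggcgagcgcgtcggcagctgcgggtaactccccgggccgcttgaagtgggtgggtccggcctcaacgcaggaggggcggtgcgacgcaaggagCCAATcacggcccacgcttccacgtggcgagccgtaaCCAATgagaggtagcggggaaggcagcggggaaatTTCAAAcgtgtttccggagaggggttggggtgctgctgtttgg
Each holds 1 CHR match and 2 CCAAT matches. The kinesins are Kif11 at chr19:37376132-37376431, plus strand, the motor that pushes spindle poles apart, and Kif18a at chr2:109280488-109280787, plus strand, which limits the swing of chromosomes at the spindle equator.
Kif11: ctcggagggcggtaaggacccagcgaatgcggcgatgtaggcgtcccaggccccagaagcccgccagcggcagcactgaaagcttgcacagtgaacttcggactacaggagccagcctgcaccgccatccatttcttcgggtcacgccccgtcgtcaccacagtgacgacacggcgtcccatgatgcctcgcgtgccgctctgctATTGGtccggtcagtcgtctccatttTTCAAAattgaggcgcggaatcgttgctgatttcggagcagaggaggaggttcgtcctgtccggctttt
Kif18a: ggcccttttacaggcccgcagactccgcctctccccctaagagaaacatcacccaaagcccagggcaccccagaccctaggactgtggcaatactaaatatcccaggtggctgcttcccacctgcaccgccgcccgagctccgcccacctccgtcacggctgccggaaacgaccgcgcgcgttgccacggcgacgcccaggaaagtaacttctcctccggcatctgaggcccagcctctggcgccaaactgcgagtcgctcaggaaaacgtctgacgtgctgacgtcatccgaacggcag
Kif11 holds 1 match of each kind and Kif18a none. The kinetochore genes are Cenph at chr13:100775850-100776149, minus strand, a part of the constitutive centromere network, and Cenpf at chr1:189688037-189688336, minus strand, a large outer kinetochore protein.
Cenph: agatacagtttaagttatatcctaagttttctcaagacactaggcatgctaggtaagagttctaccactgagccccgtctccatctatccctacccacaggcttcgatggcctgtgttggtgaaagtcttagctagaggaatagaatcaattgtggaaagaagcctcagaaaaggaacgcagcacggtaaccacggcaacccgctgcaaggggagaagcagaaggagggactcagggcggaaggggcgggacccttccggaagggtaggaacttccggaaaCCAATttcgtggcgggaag
Cenpf: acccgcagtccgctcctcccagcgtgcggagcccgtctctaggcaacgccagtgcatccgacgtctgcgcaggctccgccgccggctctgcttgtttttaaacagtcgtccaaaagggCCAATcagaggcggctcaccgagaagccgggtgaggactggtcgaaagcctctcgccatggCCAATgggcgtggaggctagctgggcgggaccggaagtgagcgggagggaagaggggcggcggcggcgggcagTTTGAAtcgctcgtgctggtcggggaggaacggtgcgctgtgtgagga
Cenph holds only a CCAAT match, and Cenpf holds 1 CHR match and 2 CCAAT matches.

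Among the members, 37 of 45 genes had a promoter in the RefSeq table, with 42 promoters between them, and Spc24, Tpx2, Incenp, Kif20a, Aurkb, Foxm1, Cdc25c and Pbk had none. A CHR match stood in 69.0% of the 42 promoters, against 19.2% of all 32851 promoters of the same length. CCAAT stood in 78.6% of the members' promoters and 37.4% of all, and both kinds together in 59.5% and 7.52%. By sub-group, the CHR letters were in 75.0% of 8 kinase promoters, 87.5% of 8 kinesin promoters and 36.4% of 11 kinetochore promoters. The kinetochore promoters belong to 9 genes, and 3 of them are those of Cenpk, which had no CHR match, so that share counts 1 gene more than once. Of 15 promoters of transport kinesins, motors that carry cargo rather than divide cells, 6.67% held the CHR letters. These are matches of letters, a description and not a measure of binding.

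As a check of the labels, Cdkn1a was 3.85 ± 0.15 higher on the log2 scale in AdenoCRE than AdenoGFP cells (± standard error, as for all changes here; adjusted p = 3.5e-05 in limma). With siP53 it changed by -2.07 ± 0.11 in the lincP21KD experiment and -2.64 ± 0.18 in the hnRNPKKD experiment. Hnrnpk fell by 3.51 ± 0.35 with its own siRNA, from log2 12.68, 12.03 and 12.47 on the control arrays to 8.38, 8.34 and 9.94. Trp53 itself and lincRNA-p21 are not analysed here. By their mean over all arrays, 10 of 10 fibroblast markers lay above the minimum, as did 4 of 7 macrophage, 1 of 6 endothelial, 5 of 6 epithelial, 3 of 6 skeletal muscle, 7 of 7 neural, 3 of 4 adipocyte and 4 of 5 chondrocyte markers. The leukocyte marker Ptprc and the endothelial marker Pecam1 were below it. The macrophage markers Cd68, Csf1r, Lyz2 and Cd14 and the endothelial marker Kdr were above it on every array. Some marker means differed between the experiments, given here in the order time course, lincP21KD and hnRNPKKD. The neural marker Sox2 had 4.05, 4.00 and 7.99, so it passed only through the hnRNPKKD experiment. The chondrocyte marker Col2a1 had 8.64, 5.10 and 6.23, and the epithelial marker Krt8 had 4.68, 6.54 and 4.03. The part of other cell types, or of these differences, in the results was not tested. Array medians ranged from 4.976 to 5.032 in the time course, 5.546 to 5.656 in the lincP21KD experiment and 4.832 to 4.914 in the hnRNPKKD experiment. Levels of the members are therefore compared only within an experiment.

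Between the viruses, the first comparison asked which members differ when p53 is restored, over all 5 times as pairs. In AdenoCRE cells 18 of 44 members were lower (background: 6.24% of all tested genes called lower) and 1 was higher (background 12.9%), at an adjusted p below 0.05. The median change of the members was -0.35 on the log2 scale, against 0.04 over all tested genes. Lower calls were made for 3 of 10 kinases, 5 of 8 kinesins, 3 of 10 kinetochore genes, 4 of 9 spindle and cytokinesis genes, 1 of 4 cyclin and anaphase-promoting genes and 2 of 3 proliferation genes, with medians of -0.34, -0.43, -0.32, -0.30, -0.22 and -0.57. At all 5 times 24 of 44 members were lower in AdenoCRE cells, compared with 11.1% of all genes. Fewer cells in mitosis and less RNA per cell cannot be told apart in such bulk samples, here or in the results that follow.

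Among the kinases, Bub1 read log2 9.71, 9.71, 9.28, 9.19 and 10.01 in AdenoGFP cells and 9.63, 8.45, 8.84, 8.90 and 9.15 in AdenoCRE cells at 0, 1, 3, 6 and 9 h. It was lower by 0.58 ± 0.16 (adjusted p = 0.0394, limma with Benjamini-Hochberg adjustment), in all 5 pairs, and the gap was widest at 1 h. Aurkb, the kinase of the chromosomal passenger complex that corrects faulty chromosome attachments, read 9.42, 9.11, 9.07, 9.44 and 9.98 against 9.04, 8.76, 8.72, 8.93 and 9.00. Its AdenoCRE arrays all lay below every AdenoGFP array, and the change was -0.51 ± 0.11 (adjusted p = 0.0166). Ttk read 8.40, 8.23, 7.59, 7.97 and 8.78 against 8.40, 7.43, 7.31, 7.84 and 7.88. The viruses had the same Ttk value at 0 h and parted after doxorubicin, and the change of -0.42 ± 0.15 did not pass the test (adjusted p = 0.0792). Nek2, a kinase that splits the centrosomes, was the other kinase called lower, by 0.37 ± 0.10. Plk1 and Aurka changed least in this sub-group, with values of -0.20 ± 0.10 and -0.21 ± 0.10 that did not pass.

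Kif11 had the largest change of the kinesins. It read 8.89, 8.74, 8.01, 7.62 and 8.92 in AdenoGFP cells and 8.47, 7.49, 7.42, 7.45 and 7.87 in AdenoCRE cells, lower at every time and by 0.70 ± 0.16 in the fit (adjusted p = 0.0196, a 1.62-fold difference). Kif18a read 7.17, 7.14, 5.36, 6.58 and 6.82 against 6.90, 5.55, 5.62, 6.09 and 6.02. At 3 h the order was turned, with the lowest Kif18a value of the time course in AdenoGFP cells, and the change of -0.58 ± 0.22 was not called (adjusted p = 0.111). Kif2c, or MCAK, which takes microtubule ends apart at the centromere, read 9.76, 9.67, 9.17, 9.18 and 9.85 against 9.53, 9.39, 8.40, 8.88 and 9.12. Kif2c was lower in all 5 pairs, by 0.46 ± 0.11 (adjusted p = 0.0236). Kif20a, Kif22 and Kif4, which work in cytokinesis and on chromosome arms, were lower by 0.46 ± 0.10, 0.39 ± 0.10 and 0.39 ± 0.12, while Kif15 and Kif23 were not called.

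Of the kinetochore genes, Cenph read 8.87, 8.62, 8.76, 9.29 and 9.88 in AdenoGFP cells and 8.50, 8.06, 8.12, 8.42 and 8.91 in AdenoCRE cells. The gap widened from one time to the next, and Cenph was lower by 0.68 ± 0.11 over the times (adjusted p = 0.00481). Cenpf read 8.57, 8.62, 6.98, 7.60 and 8.37 against 8.53, 7.05, 6.91, 7.40 and 7.75. Its gap was large at 1 h and near 0 at 0 h and 3 h, and the change of -0.50 ± 0.21 was not called (adjusted p = 0.141). Nuf2, a subunit of the Ndc80 complex that grips microtubules, read 10.07, 9.91, 9.55, 9.19 and 10.33 against 9.91, 9.52, 9.02, 8.94 and 9.37 and was lower by 0.46 ± 0.12 (adjusted p = 0.0342). Spc25, another subunit of that complex, had a change of 0.03 ± 0.13 (95% interval -0.26 to 0.33), which turned negative with centred arrays.

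Ect2, the exchange factor that starts the cleavage furrow, had the largest fall of all members. It read 10.45, 10.55, 10.02, 10.39 and 10.44 in AdenoGFP cells and 10.16, 9.43, 8.99, 9.19 and 9.51 in AdenoCRE cells, and was lower by 0.91 ± 0.13 (adjusted p = 0.00396), with every AdenoCRE value after 0 h below every AdenoGFP value. Top2a, which untangles sister chromatids, was lower by 0.57 ± 0.14 (adjusted p = 0.028), and Racgap1, the partner of Ect2 at the midzone, by 0.49 ± 0.10 (adjusted p = 0.0141). Gtse1, a microtubule-binding protein known in the mouse as a gene that p53 induces, went the other way. Gtse1 read 8.22, 7.99, 7.68, 7.80 and 8.32 in AdenoGFP cells and 9.04, 8.97, 9.90, 10.25 and 10.19 in AdenoCRE cells, higher at every time and by 1.67 ± 0.24 (adjusted p = 0.00358, 3.18-fold).

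The virus comparison rests on the pairing by time: without the time block 1 member, Ect2, was called lower. Leaving out 1 pair left 14 lower calls without 0 h, 13 without 1 h, 4 without 3 h, 8 without 6 h and 5 without 9 h. Among the members named above, Gtse1, Ect2, Cenph and Aurkb kept their call without any single pair. Kif11, Kif2c and Racgap1 lost it without the 3 h pair, Kif11 and Kif2c also without the 9 h pair, Top2a without the 1, 6 or 9 h pair, and Bub1 and Nuf2 without the 1, 3, 6 or 9 h pair. No kinesin stayed called when 3 h or 9 h was left out. In each of these cases Nek2, Kif20a, Kif22 and Kif4 also lost their calls. Centring each array on its median, which moved the median change of all genes to -0.07, gave 30 lower calls. Top2a was not called when its probe sets were averaged (-0.30).

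**Figure D1:**
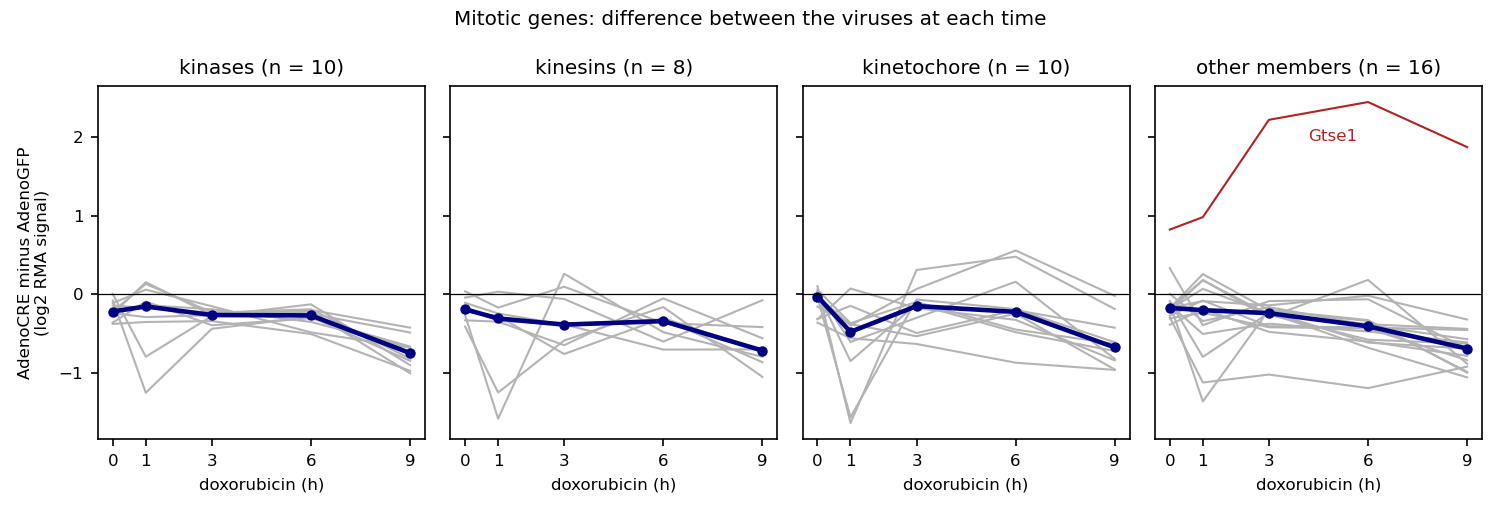
AdenoCRE minus AdenoGFP on the log2 scale against hours of doxorubicin, in panels for the 10 kinases, 8 kinesins, 10 kinetochore genes and 16 other members; each grey line is a gene (1 array per virus and time), the navy line the median and the red line Gtse1. Most lines lie below 0 and reach their lowest median at 9 h, while Gtse1 lies above 0 throughout.

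By time, the members' median difference between the viruses was -0.17 at 0 h, -0.29 at 1 h, -0.26 at 3 h, -0.33 at 6 h and -0.70 at 9 h. At these times 35, 34, 39, 39 and 43 of 44 members were lower in AdenoCRE cells (all genes: 5675, 4643, 5171, 5242 and 6926 of 12675). On these arrays the median difference was thus below 0 before doxorubicin and was widest at the last time. All tested genes had a median of 0.03 at 0 h and -0.03 at 9 h. These are single arrays and carry no test. At 9 h the medians of the kinases, kinesins and kinetochore genes were close to each other, at -0.75, -0.72 and -0.68. At 1 h the kinetochore genes stood at -0.48, below the kinesins at -0.31 and the kinases at -0.16.

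Against its own untreated array, each virus showed a dip after doxorubicin. In AdenoGFP cells the median member changed by -0.13 at 1 h, -0.42 at 3 h, -0.40 at 6 h and 0.09 at 9 h, with 34, 43, 37 and 19 of 44 below their own 0 h value (all genes: 55.6%, 51.3%, 57.0% and 41.1%). In AdenoCRE cells the medians were -0.25, -0.53, -0.59 and -0.36, with 32, 42, 42 and 39 members below 0 h (all genes: 39.8%, 44.5%, 46.8% and 48.7%). The median of the members was thus back near its starting level at 9 h in AdenoGFP cells and not in AdenoCRE cells. In the AdenoGFP cells the kinetochore genes stood highest at 9 h, with a median of 0.43 above 0 h, the kinases at 0.25 and the kinesins at 0.03.

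The depth of the dip differed between members. In AdenoGFP cells 4 members read more than 1 below their 0 h value at 3 h (0.300% of all genes did): Kif18a at -1.80, Cenpf at -1.59, Cenpe at -1.35 and Mki67 at -1.22. At 6 h 3 members did (2.12% of all genes): Cdc25c at -1.43, Kif11 at -1.27 and Plk1 at -1.13. No member did at 1 h or 9 h (all genes: 0.110% and 0.126%). Cenpe is a kinesin-like motor of the kinetochore and Mki67 encodes Ki-67, the coat of mitotic chromosomes. In AdenoCRE cells 5 members had passed that depth at 1 h, 9 at 3 h, 7 at 6 h and 1 at 9 h (all genes: 1.83%, 0.939%, 1.21% and 0.757%). At 1 h, 7 members (Bub1, Kif11, Kif18a, Cenpe, Cenpf, Ect2 and Mki67) were more than 1 lower in AdenoCRE than AdenoGFP cells, against 2.07% of all genes. Cenpe read 8.89, 9.03, 7.54, 8.18 and 8.82 in AdenoGFP cells and 8.99, 7.39, 7.84, 8.65 and 8.63 in AdenoCRE cells, so its low point was at 3 h with one virus and at 1 h with the other. These genes were picked after their values were seen, from single arrays, and nothing was tested on them.

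**Figure D2:**
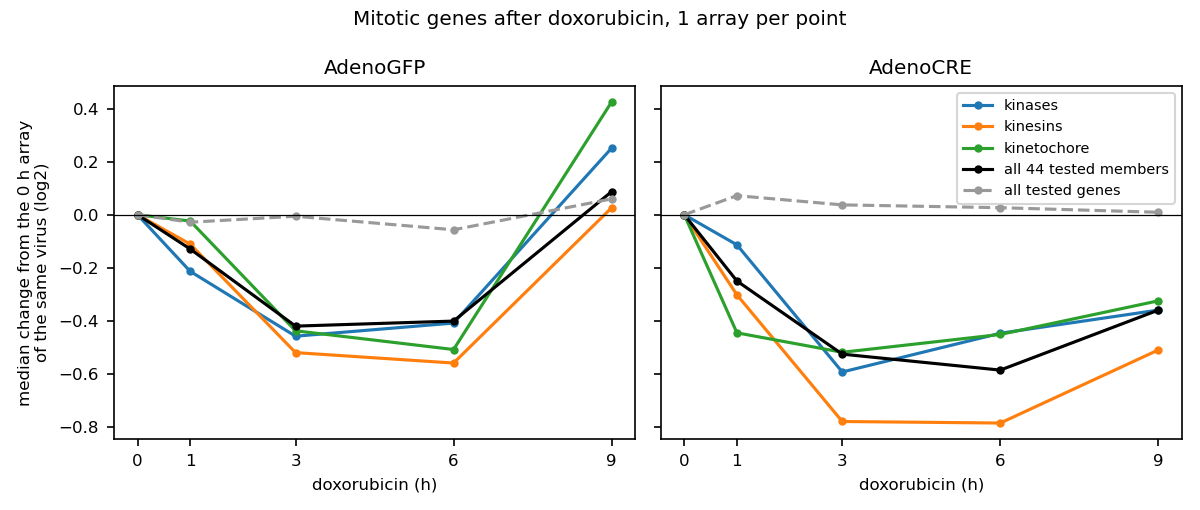
Median log2 change from the untreated array of the same virus against hours of doxorubicin, for kinases, kinesins, kinetochore genes, all 44 members and all 12675 tested genes, with AdenoGFP cells in the first panel and AdenoCRE cells in the second. The members are lowest at 3 or 6 h in both panels and are back near 0 at 9 h only with AdenoGFP, while all genes stay near 0.

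A straight line over hours described few members. In AdenoGFP cells no slope was called in either direction (background 0.00789% higher and 0% lower), while 7 slopes were positive and 2 negative at an unadjusted p below 0.05 in limma (all genes: 9.28% and 3.77%). The smallest p-values belonged to Cenph (0.13 per hour), Spc24 (0.08), Ccnb2 (-0.09) and Pbk (0.09), none of them called. In AdenoCRE cells Gtse1 rose by 0.15 ± 0.04 per hour (adjusted p = 0.0481, background 3.94%) and Ccnb2, the B-type cyclin of Cdk1, fell by 0.15 ± 0.03 per hour (adjusted p = 0.0282, background 1.45%). Cdc25c, the phosphatase that activates Cdk1, and Cenpa, the centromeric histone, had slopes of -0.14 ± 0.05 and -0.08 ± 0.03 that were not called. Both calls were lost without the 0, 1 or 3 h pair, that of Gtse1 also without the 6 h pair or the filter on low values, and that of Ccnb2 without the 9 h pair or on log2 hours. No difference in slope between the viruses was called for any member (background 0.181% higher and 0% lower); 1 was higher and 3 lower at an unadjusted p below 0.05, 4 of 44 in all against 8.40% of all genes, Gtse1 with 0.14 ± 0.05, Cdk1 with -0.08 ± 0.03, Incenp with -0.11 ± 0.04 and Birc5 with -0.07 ± 0.03.

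In the lincP21KD experiment, the question was what p53 or lincRNA-p21 knockdown does to these genes in damaged cells with restored p53. With siP53, 19 of 44 members rose (background 7.01%) and 1 fell (background 5.74%), with a median of 0.35 against 0.02 over all genes. Calls went to 4 of 10 kinases, 5 of 8 kinesins, 4 of 10 kinetochore genes, 3 of 9 spindle and cytokinesis genes, 1 of 4 cyclin and anaphase-promoting genes and 2 of 3 proliferation genes. For 38 members every siP53 array lay above both siScramble arrays, as for 25.1% of all genes. With siLincP21, 6 members rose (background 7.47%) and none fell (background 4.39%), with a median of 0.17. At an unadjusted p below 0.05 in limma, 13 were higher and 0 lower (all genes: 15.8% and 10.6%). The knockdowns share the 2 siScramble arrays.

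Nek2 had the largest rise. It read log2 8.87 and 8.78 with siScramble, 9.71, 9.66 and 9.76 with siP53 and 9.42, 9.37 and 9.52 with siLincP21. The groups were apart in the order siP53, siLincP21, siScramble, with rises of 0.88 ± 0.08 (adjusted p = 0.000114) and 0.61 ± 0.08 (adjusted p = 0.00204). Aurkb read log2 8.94 and 9.15 with siScramble, 10.02, 9.98 and 9.70 with siP53 and 9.74, 9.81 and 9.40 with siLincP21. Aurkb rose by 0.85 ± 0.14 with siP53 and 0.60 ± 0.14 with siLincP21 (adjusted p = 0.0227), and the 2 knockdown groups overlapped. Bub1b, or BubR1, the checkpoint kinase that holds back anaphase, read log2 9.85 and 9.89 with siScramble, 10.42, 10.40 and 10.22 with siP53 and 10.15, 10.16 and 10.13 with siLincP21. It rose by 0.47 ± 0.08 with siP53, and its siLincP21 change of 0.27 ± 0.08 was not called. Cdk1 read log2 12.98 and 13.04 with siScramble, 13.45, 13.30 and 13.19 with siP53 and 13.37, 13.31 and 13.21 with siLincP21, and its changes of 0.30 ± 0.09 and 0.28 ± 0.09 (adjusted p = 0.0805 for siLincP21) were not called although no control array reached a knockdown array.

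Among the kinesins, Kif2c read log2 9.72 and 9.64 with siScramble, 10.21, 10.23 and 10.02 with siP53 and 10.01, 10.11 and 10.12 with siLincP21. Both knockdowns raised Kif2c above its controls, by 0.47 ± 0.09 and 0.40 ± 0.09. Kif4, the chromosome-arm motor, read log2 8.72 and 8.89 with siScramble, 9.29, 9.33 and 9.18 with siP53 and 8.99, 9.06 and 9.11 with siLincP21, and rose by 0.46 ± 0.09 with siP53 only as far as the calls go, its siLincP21 change being 0.25 ± 0.09 (adjusted p = 0.0907). Kif11 read log2 9.55 and 9.51 with siScramble, 10.12, 10.27 and 9.77 with siP53 and 9.87, 9.90 and 9.42 with siLincP21. The third siP53 array and the third siLincP21 array were the lowest of their groups, and neither change was called (0.52 ± 0.17, adjusted p = 0.0678, and 0.20 ± 0.17, adjusted p = 0.509).

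Of the kinetochore genes, Nuf2 read log2 9.89 and 10.09 with siScramble, 10.77, 10.82 and 10.52 with siP53 and 10.46, 10.53 and 10.38 with siLincP21, and Ndc80, the subunit that names its complex, read log2 9.15 and 9.27 with siScramble, 9.91, 9.80 and 9.74 with siP53 and 9.51, 9.50 and 9.53 with siLincP21. Both genes stood in the order siP53, siLincP21, siScramble with no overlap for Ndc80 and with 1 siLincP21 array of Nuf2 just above the lowest siP53 array. Nuf2 rose by 0.71 ± 0.11 and 0.46 ± 0.11, and Ndc80 by 0.61 ± 0.08 and 0.30 ± 0.08 (adjusted p = 0.0378 for siLincP21). Cenpf read log2 9.44 and 9.64 with siScramble, 10.18, 10.23 and 9.84 with siP53 and 9.93, 10.11 and 9.78 with siLincP21 and rose by 0.54 ± 0.14 with siP53 (adjusted p = 0.0274), while 0.40 ± 0.14 with siLincP21 was not called. Racgap1 rose by 0.50 ± 0.08 with siP53, and Foxm1, the transcription factor of the mitotic genes, by 0.40 ± 0.10 and 0.55 ± 0.10. Gtse1 was the member that fell with siP53, by 0.74 ± 0.09 (adjusted p = 0.000756), from 9.73 and 9.85 to 9.18, 8.92 and 9.04.

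The 2 siScramble arrays carry much of these counts. Without siScramble replicate 1, 5 members rose with siP53 and 1 with siLincP21, and without replicate 2, 9 and 1. The siP53 count was also 11 without siP53 replicate 1 and 26 without siP53 replicate 3, the array that was the lowest of its group for 37 of 44 members. With trend and robust variances the siP53 count was 30. The siLincP21 count was 3 without siLincP21 replicate 1 or 2. Nek2 kept both calls in each case. With siLincP21, Aurkb, Foxm1, Nuf2, Kif2c and Ndc80 lost theirs without either siScramble array. With siP53, Aurkb, Bub1b, Cenpf and Kif4 lost theirs without siScramble replicate 1, and Cenpf and Kif2c without replicate 2.

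A direct test of siP53 against siLincP21 found 8 members higher with siP53 (background 9.21%) and 1 lower (background 11.2%), with a median of 0.20. At an unadjusted p below 0.05 in limma, 21 of 44 members were higher and 1 lower (all genes: 16.4% and 18.1%). The 8 called higher were Ect2 (0.40 ± 0.11), Tpx2 (0.33 ± 0.08), Cenpk (0.32 ± 0.07), Bub1 (0.32 ± 0.09), Ndc80 (0.30 ± 0.07), Racgap1 (0.28 ± 0.08), Nek2 (0.27 ± 0.07) and Cenpa (0.25 ± 0.08). No kinesin was called: Kif11, Kif23 and Kif4 had 0.33 ± 0.15, 0.27 ± 0.09 and 0.21 ± 0.08. Gtse1 was lower with siP53 by 0.86 ± 0.08. Bub1 read log2 10.74 and 10.81 with siScramble, 11.13, 11.15 and 10.92 with siP53 and 10.74, 10.85 and 10.64 with siLincP21, and Cenpk, of the centromere network, read log2 10.61 and 10.59 with siScramble, 10.89, 10.88 and 10.68 with siP53 and 10.49, 10.51 and 10.48 with siLincP21. For both genes every siP53 array was above all arrays of the other groups, while siLincP21 lay below siScramble for Cenpk and overlapped it for Bub1. Ttk read log2 9.42 and 9.48 with siScramble, 9.92, 9.86 and 9.63 with siP53 and 9.66, 9.67 and 9.20 with siLincP21 and Spc25 read log2 11.09 and 11.12 with siScramble, 11.40, 11.38 and 11.03 with siP53 and 11.04, 11.11 and 10.83 with siLincP21, and their differences of 0.29 ± 0.13 and 0.27 ± 0.11 were not called. Kif23 read log2 10.40 and 10.46 with siScramble, 10.83, 10.68 and 10.58 with siP53 and 10.48, 10.52 and 10.29 with siLincP21, with the lowest siP53 array above the highest siLincP21 array. The count was 2 without siP53 replicate 1 or siLincP21 replicate 1, 3 without siP53 replicate 2, and 18 without siP53 replicate 3. Tpx2 and Gtse1 kept their calls in each case, and the others lost theirs in at least 1. With centred arrays the count was 17, and with trend and robust variances 13.

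**Figure D3:**
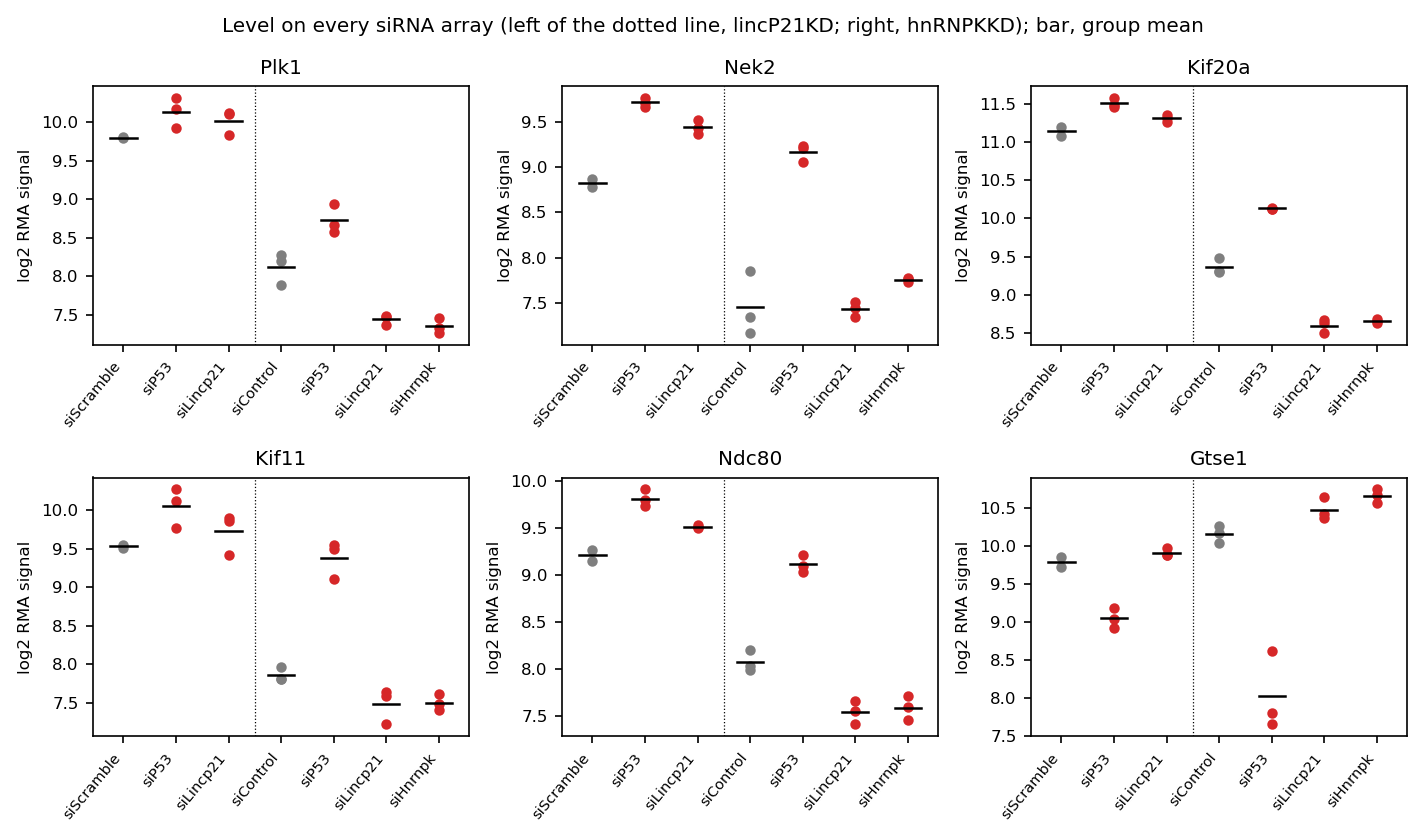
Deposited log2 level of Plk1, Nek2, Kif20a, Kif11, Ndc80 and Gtse1 on every array of the 7 siRNA groups, with a bar at each group mean; levels are compared within an experiment only. The siP53 arrays are the highest of their experiment for the 5 genes other than Gtse1, apart from the third siP53 array of the lincP21KD experiment for Plk1 and Kif11, and they are the lowest for Gtse1.

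In the hnRNPKKD experiment the rise with siP53 took in most members. It was called for 37 of 44 (background 19.3%), with 1 fall (background 19.2%) and a median of 0.92 against -0.01 over all genes. All 10 kinases rose, as did 7 of 8 kinesins, 7 of 10 kinetochore genes, 7 of 9 spindle and cytokinesis genes, 3 of 4 cyclin and anaphase-promoting genes and all 3 proliferation genes. The medians of kinases, kinesins and kinetochore genes were 0.99, 0.93 and 0.89. For 37 members every siP53 array lay above all 3 controls, compared with 21.2% of all genes. The count stayed between 36 and 39 when any 1 array of either group was left out.

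Nek2 read 7.17, 7.85 and 7.34 with the control siRNA and 9.23, 9.06 and 9.21 with siP53, and Aurkb 7.04, 7.45 and 7.08 with the control siRNA and 8.92, 8.78 and 8.70 with siP53. The gap between the groups exceeded the spread within them, with rises of 1.71 ± 0.14 (adjusted p = 2.36e-06) and 1.61 ± 0.13 (adjusted p = 2.1e-06), or 3.28-fold and 3.05-fold. Bub1b read 7.997, 8.29 and 7.97 with the control siRNA and 9.27, 8.87 and 9.54 with siP53 and rose by 1.14 ± 0.18, with the lowest siP53 array well above the controls. The smallest kinase rises were those of Plk1 (0.61 ± 0.12), Aurka (0.63 ± 0.22, adjusted p = 0.0385), Cdk1 (0.64 ± 0.10) and Pbk (0.64 ± 0.09). Aurka read 9.05, 9.67 and 9.27 with the control siRNA and 9.88, 10.49 and 9.51 with siP53, so its groups overlapped by 1 array on each side.

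Kif11 read 7.81, 7.96 and 7.81 with the control siRNA and 9.55, 9.11 and 9.49 with siP53, and Kif4 7.67, 7.90 and 7.57 with the control siRNA and 8.88, 8.81 and 9.14 with siP53. They rose by 1.53 ± 0.14 and 1.23 ± 0.12, with no overlap. Kif2c read 8.17, 8.08 and 8.05 with the control siRNA and 9.32, 8.70 and 9.38 with siP53 and rose by 1.03 ± 0.16, with the second siP53 array lowest of its group. The other Kif2c probe sets gave 0.43, 0.09 and -0.02, and the call was lost when they were averaged (0.38). Kif15, a spindle motor that backs up Kif11, was the kinesin that was not called (-0.04 ± 0.13). In the kinetochore, Nuf2 read 7.88, 8.43 and 8.03 with the control siRNA and 9.44, 9.44 and 9.37 with siP53 and Ndc80 read 8.03, 8.20 and 7.99 with the control siRNA and 9.10, 9.04 and 9.21 with siP53. They rose by 1.30 ± 0.13 and 1.04 ± 0.10. Cenpf read 8.42, 8.20 and 8.11 with the control siRNA and 9.55, 9.12 and 9.64 with siP53 and rose by 1.19 ± 0.15. Cenpa, Cenph and Spc25 were not called, with 0.26 ± 0.11, 0.60 ± 0.26 and -0.04 ± 0.08. The fourth subunit of the Ndc80 complex, Spc24, rose by 0.89 ± 0.09, so 3 of the 4 subunits rose and Spc25 was not called.

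Ect2 and Racgap1 rose together, by 1.32 ± 0.17 and 1.28 ± 0.17. Birc5, or survivin, and Ube2c, the ubiquitin-conjugating enzyme of the anaphase-promoting complex, were not called (0.60 ± 0.23 and 0.14 ± 0.28). Gtse1 read 10.17, 10.04 and 10.27 with the control siRNA and 7.80, 8.61 and 7.65 with siP53, and fell by 2.14 ± 0.20 (adjusted p = 4.75e-06). The second siP53 array was the lowest of its group for 23 of 44 members and the highest of its group for Gtse1. Its Cdkn1a level of 11.41 stood above the 10.52 and 10.61 of the other siP53 arrays. Without it 36 members rose.

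The siP53 effect itself differed between the experiments, tested as the difference between the changes against each control. It was larger in the hnRNPKKD experiment for 27 of 44 members (background 7.14%) and more negative for 1 (background 7.35%), with a median difference of 0.57. These were 6 kinases, 4 kinesins, 6 kinetochore genes, 7 spindle and cytokinesis genes, 1 cyclin and anaphase-promoting gene and 3 proliferation genes. The count was 11 without siScramble replicate 2, 16 without siScramble replicate 1, 14 without siP53 replicate 3 of the lincP21KD experiment, and 16 and 14 without siP53 replicate 1 or control replicate 3 of the hnRNPKKD experiment. Known p53 target genes differed too. The siP53 change was more negative in the hnRNPKKD experiment for Phlda3 (-1.72 ± 0.34), Sesn2 (-1.01 ± 0.19), Perp (-0.90 ± 0.18) and Bbc3 (-0.60 ± 0.19). It was less negative there for Ccng1 (0.57 ± 0.15). Cdkn1a (-0.57 ± 0.24), Mdm2 (-0.86 ± 0.32), Zmat3, Eda2r and Trp53inp1 were not called. The experiments also differ in the level at which the arrays sit. The part of either in the members' difference was not tested.

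With siLincp21 in the hnRNPKKD experiment the members went down. None rose (background 17.2%) and 25 of 44 fell (background 11.8%), with a median of -0.47 against 0.01 over all genes. The falls were called for 8 of 10 kinases, 2 of 8 kinesins, 7 of 10 kinetochore genes, 4 of 9 spindle and cytokinesis genes, 2 of 4 cyclin and anaphase-promoting genes and 2 of 3 proliferation genes. The sub-group medians were -0.66 for kinases, -0.32 for kinesins and -0.58 for kinetochore genes. Every siLincp21 array lay below all 3 controls for 34 members, against 21.3% of all genes. At an unadjusted p below 0.05 in limma, 1 member was higher and 31 were lower (all genes: 22.5% and 17.0%).

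Aurka, the kinase of the spindle poles, read 9.05, 9.67 and 9.27 with the control siRNA and 8.37, 8.39 and 7.96 with siLincp21. It fell by 1.09 ± 0.22 (adjusted p = 0.00242), the largest fall of the members, with no overlap. Pbk, a mitotic kinase that is active at the spindle, read 9.88, 9.95 and 9.84 with the control siRNA and 9.18, 9.04 and 8.90 with siLincp21, and Ttk read 7.83, 8.04 and 7.75 with the control siRNA and 7.09, 6.91 and 7.21 with siLincp21. Both fell with no overlap, by 0.85 ± 0.09 and 0.80 ± 0.11. Plk1 fell by 0.68 ± 0.12 (adjusted p = 0.00119) and Top2a by 0.68 ± 0.10 (adjusted p = 0.000392). The kinases that did not fall were Aurkb and Nek2. Aurkb had 0.35 ± 0.13 (adjusted p = 0.0624) and Nek2 -0.02 ± 0.14.

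Kif20a, the cytokinesis motor Mklp2, read 9.31, 9.48 and 9.30 with the control siRNA and 8.67, 8.63 and 8.50 with siLincp21, and Kif23, the midzone motor Mklp1, read 9.02, 9.36 and 9.01 with the control siRNA and 8.44, 8.45 and 8.49 with siLincp21. They fell by 0.76 ± 0.08 (adjusted p = 3.38e-05) and 0.67 ± 0.10 (adjusted p = 0.000448) and were the only kinesins called. Kif2c read 8.17, 8.08 and 8.05 with the control siRNA and 7.69, 7.46 and 7.82 with siLincp21, and its change of -0.44 ± 0.16 missed the threshold (adjusted p = 0.051). Kif11, with -0.38 ± 0.14 (95% interval -0.68 to -0.08), was not called. The low kinesin count depends in part on the probe sets used. Other Kif2c probe sets above the limit gave -0.68, -0.59 and -0.33, and other Kif11 probe sets gave -0.56 and -0.38. Kif22 had -0.18 with the probe set used, and its others gave -0.38 and -0.66. Kif2c stayed uncalled in 8 of 13 alternatives of the processing.

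Spc25 read 10.86, 10.78 and 10.79 with the control siRNA and 9.94, 9.96 and 9.84 with siLincp21 and fell by 0.90 ± 0.08 (adjusted p = 6.61e-06). It was the Ndc80 subunit with the largest fall here. Ndc80 fell by 0.53 ± 0.10, while Nuf2 (-0.15 ± 0.13) and Spc24 (-0.10 ± 0.09) were not called. Cenpa read 9.35, 9.57 and 9.40 with the control siRNA and 8.80, 8.70 and 8.56 with siLincp21 and fell by 0.75 ± 0.11, though a dimmer Cenpa probe set gave 0.08. Cenph read 6.74, 7.23 and 7.02 with the control siRNA and 6.67, 6.29 and 5.96 with siLincp21, and its change of -0.69 ± 0.26 was not called (adjusted p = 0.0649). Foxm1 (0.19 ± 0.11) and Gtse1 (0.32 ± 0.20) were not called either.

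The calls of the same knockdown thus went up in the lincP21KD experiment and down in the hnRNPKKD experiment, but mostly for different members. Of the members called higher in the lincP21KD experiment, only Ndc80 was called lower in the hnRNPKKD experiment. Its call in the lincP21KD experiment was kept in 4 of 12 alternatives of the processing. Nek2, Aurkb, Foxm1, Nuf2 and Kif2c were not called in the hnRNPKKD experiment. The difference between the experiments was tested. The siLincp21 change was lower in the hnRNPKKD experiment for 27 of 44 members (background 3.51%) and higher for none (background 4.63%, and 0 at an unadjusted p below 0.05 in limma), with a median difference of -0.62. The 27 were 9 kinases, 4 kinesins, 7 kinetochore genes, 3 spindle and cytokinesis genes, 2 cyclin and anaphase-promoting genes and 2 proliferation genes. Aurka differed by -1.31 ± 0.30, Cenpf by -1.03 ± 0.22, Bub1b by -0.94 ± 0.22, Top2a by -0.93 ± 0.17 and Kif20a by -0.93 ± 0.11. The count was 14 without siScramble replicate 1 and 12 without siScramble replicate 2, and lay between 19 and 25 without any other array. Cdkn1a changed by 0.01 ± 0.11 in the lincP21KD experiment and 0.31 ± 0.18 in the hnRNPKKD experiment with siLincp21, and its part in the members' difference was not tested.

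**Figure D4:**
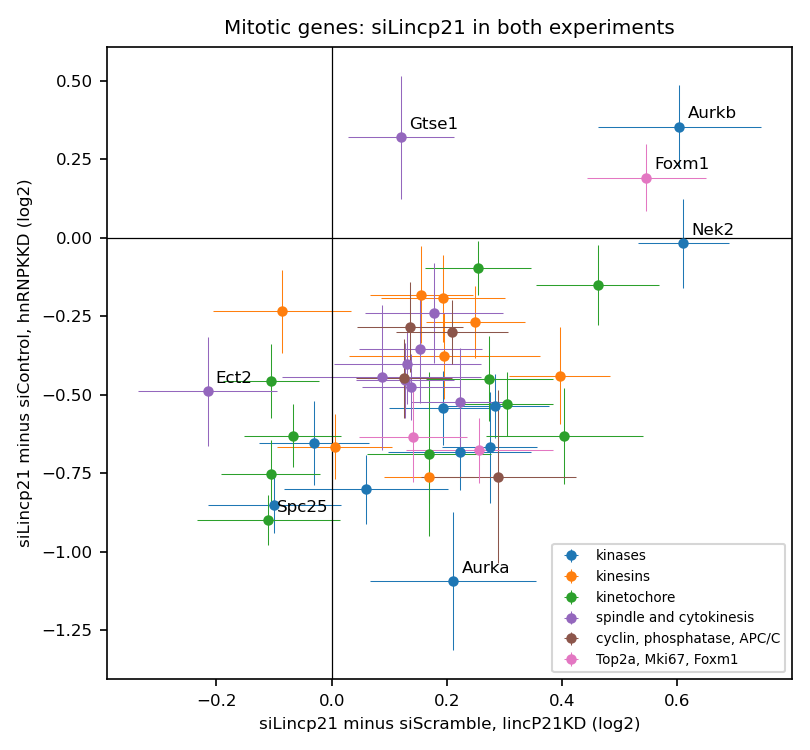
siLincp21 change of each member against its own control in the lincP21KD experiment (horizontal) and the hnRNPKKD experiment (vertical), in log2, with standard errors as bars and colours for the sub-groups. Of the 44 members, 33 have opposite signs in the experiments, most of them above 0 on the horizontal and below 0 on the vertical axis. The share of all genes with opposite signs is not given here, so the count only describes the members.

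With siHnrnpk, 23 members fell (background 12.8%) and none rose (background 14.1%), with a median of -0.45 against 0.00 over all genes. The falls were those of 7 of 10 kinases, 4 of 8 kinesins, 7 of 10 kinetochore genes, 2 of 9 spindle and cytokinesis genes and all 3 proliferation genes. None of the 4 cyclin and anaphase-promoting genes was called. Every siHnrnpk array was below all 3 controls for 37 members, against 24.2% of all genes. At an unadjusted p below 0.05 in limma, 1 member was higher and 30 were lower (all genes: 18.9% and 17.6%). This comparison uses the same 3 control arrays as siLincp21 and siP53.

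Pbk read 9.88, 9.95 and 9.84 with the control siRNA and 9.03, 9.10 and 9.10 with siHnrnpk and Plk1, the Polo kinase, 7.88, 8.27 and 8.20 with the control siRNA and 7.26, 7.32 and 7.46 with siHnrnpk. Ttk read 7.83, 8.04 and 7.75 with the control siRNA and 7.02, 7.05 and 7.25 with siHnrnpk. These kinases fell with no overlap, by 0.81 ± 0.09, 0.77 ± 0.12 and 0.76 ± 0.11 (adjusted p = 3.45e-05, 0.00053 and 0.00028). Aurka, Aurkb and Nek2 were not called, with -0.43 ± 0.22, -0.28 ± 0.13 and 0.30 ± 0.14. Kif20a read 9.31, 9.48 and 9.30 with the control siRNA and 8.65, 8.63 and 8.68 with siHnrnpk, Kif2c 8.17, 8.08 and 8.05 with the control siRNA and 7.48, 7.41 and 7.45 with siHnrnpk and Kif4 7.67, 7.90 and 7.57 with the control siRNA and 7.16, 7.41 and 7.20 with siHnrnpk. The motors fell by 0.71 ± 0.08, 0.65 ± 0.16 and 0.46 ± 0.12, and Kif23 by 0.41 ± 0.10.

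Cenpk read 8.56, 8.97 and 8.72 with the control siRNA and 7.95, 8.04 and 8.10 with siHnrnpk and fell by 0.72 ± 0.12. Spc24 read 7.40, 7.66 and 7.48 with the control siRNA and 6.96, 6.99 and 6.91 with siHnrnpk and fell by 0.56 ± 0.09, and Cenpa read 9.35, 9.57 and 9.40 with the control siRNA and 8.84, 8.90 and 8.85 with siHnrnpk and fell by 0.58 ± 0.11. All 3 had no overlap, but the Cenpa call was lost when its probe sets were averaged (-0.20). Spc25, the kinetochore gene with the largest fall under siLincp21, had -0.04 ± 0.08 here (95% interval -0.22 to 0.13). The largest falls outside the kinases and kinesins were those of Anln, the anillin of the cleavage furrow, by 0.90 ± 0.11, Mki67 by 0.87 ± 0.15 and Top2a by 0.73 ± 0.10. Racgap1 had -0.13 ± 0.17 and was not called, while its second probe set gave -0.82. Gtse1 had 0.50 ± 0.20 (adjusted p = 0.0771).

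Control replicate 2 of the hnRNPKKD experiment was the highest control for 37 of 44 members. Without it 18 members fell with siLincp21 and 19 with siHnrnpk, and 1 member rose in each case, Aurkb with siLincp21 (0.48) and Nek2 with siHnrnpk (0.50). Leaving out siLincp21 replicate 2 also left 18. A direct comparison of siP53 with siLincp21 in this experiment does not use the controls: 42 members were higher with siP53 (background 17.5%) and 1, Gtse1, was lower (background 21.3%), with a median of 1.41. The largest differences by sub-group were those of Bub1b (1.81 ± 0.18), Nek2 (1.73 ± 0.14) and Ttk (1.72 ± 0.11), of Kif11 (1.91 ± 0.14), Kif20a (1.53 ± 0.08) and Kif4 (1.50 ± 0.12), and of Cenpf (1.82 ± 0.15), Ndc80 (1.57 ± 0.10) and Nuf2 (1.45 ± 0.13). Kif15 (0.20 ± 0.13) was the member not called. Bub1b, for example, read 9.27, 8.87 and 9.54 with siP53 and 7.30, 7.20 and 7.75 with siLincp21, and every siP53 array lay above every siLincp21 array for 42 members.

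**Figure D5:**
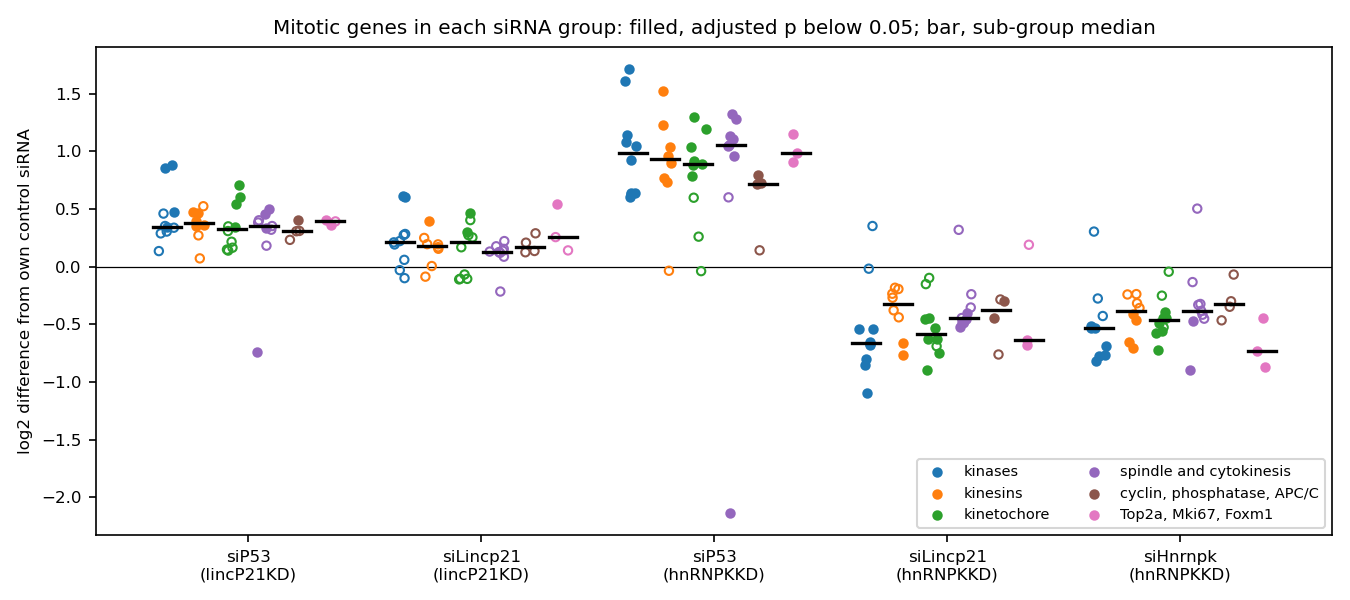
log2 change of each member against its own control in the 5 siRNA comparisons, split into the 6 sub-groups; filled points have an adjusted p below 0.05 and a bar marks the sub-group median. Medians are above 0 with siP53 in both experiments and below 0 with siLincp21 and siHnrnpk in the hnRNPKKD experiment.

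Beyond the members, lists of related genes are given by their counts. Between the viruses, where 6.24% of all genes were lower and 12.9% higher, 4 of 10 other mitotic kinases were lower and none higher (median -0.33), among them Plk4, which starts centriole duplication (-0.84 ± 0.13), and Mastl, the Greatwall kinase (-0.61 ± 0.11). Of 31 other kinetochore and centromere genes 15 were lower, such as Knl1 (-0.83 ± 0.18) and Ska3 (-0.66 ± 0.10), and 1, Cenpt, was higher (0.58 ± 0.13), with a median of -0.37. Of 17 other spindle and cytokinesis genes 9 were lower, such as Shcbp1 (-0.69 ± 0.14), and 1, Ckap2, was higher (0.96 ± 0.23), with a median of -0.39. Condensin and cohesin genes, which fold and hold the chromosomes, were lower for 7 of 16, with a median of -0.45, Smc4 at -0.82 ± 0.20 and Ncapg2 at -0.81 ± 0.16. Other G2 regulators were lower for 5 of 9, with a median of -0.38, Cdkn3 at -0.48 ± 0.10 and Cdca3 at -0.41 ± 0.12. In the list of the anaphase-promoting complex and its regulators, with a median of -0.06, 2 of 15 were lower. They were the regulator Fbxo5 (-0.61 ± 0.13) and the subunit Cdc23 (-0.29 ± 0.08). Among the kinesin lists, 1 of 4 other mitotic kinesins, Kifc1, was higher (1.26 ± 0.15), and of 18 transport kinesins 2 were higher and 1 lower, with a median of 0.07, Kif1c at 0.49 ± 0.08 and Kif21b at -0.64 ± 0.15.

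With siP53 in the hnRNPKKD experiment, where 19.3% of all genes rose and 19.2% fell, rises were called for 8 of 10 other mitotic kinases (median 1.00), such as Wee1 (1.48 ± 0.16) and Haspin (1.46 ± 0.20). They were called for 20 of 31 kinetochore genes (median 0.82), such as Cenpp (1.58 ± 0.20), and for 15 of 17 spindle genes (median 0.90), such as Ckap2l (1.44 ± 0.15), with 1 fall in each list. Condensin and cohesin genes had 11 rises of 16 (median 0.85), such as Ncapg2 (1.75 ± 0.22), and G2 regulators 7 of 9 (median 0.45), such as Cdkn3 (1.06 ± 0.12). Transport kinesins had 4 rises and 4 falls of 18 (median 0.01), with Kif1b at 1.44 ± 0.13 and Kif21a at -0.80 ± 0.12. The list of the anaphase-promoting complex and its regulators had 4 rises and 1 fall of 15 (median -0.03). The rises of both lists were near the share of all genes. Kifc1 fell by 0.74 ± 0.19 and Kif20b rose by 1.28 ± 0.15. In the lincP21KD experiment (all genes: 7.01% higher) siP53 raised 6 of the 10 kinases, 10 of the 31 kinetochore genes, 9 of the 17 spindle genes and 5 of the 16 condensin and cohesin genes. There Mastl rose by 0.60 ± 0.08, Zwint by 0.68 ± 0.09 and Iqgap3 by 0.67 ± 0.10, and none of these lists had a fall.

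With siLincp21 in the hnRNPKKD experiment (all genes: 17.2% higher and 11.8% lower) 3 of 10 other kinases rose and none fell, too few to set against that share, with Wee1, the kinase that holds Cdk1 inactive, up by 0.67 ± 0.16 and Nek9 by 0.58 ± 0.10. Kinetochore genes fell for 11 of 31, such as Zwilch (-1.03 ± 0.13), and rose for 1. Spindle genes fell for 11 of 17 and condensin and cohesin genes for 5 of 16, such as Ncapg (-0.77 ± 0.11). Tacc3, a spindle protein, fell by 1.88 ± 0.22, and Cep55, the midbody scaffold, by 0.99 ± 0.10. With siHnrnpk (all genes: 14.1% higher and 12.8% lower), 14 of 31 kinetochore genes, 8 of 17 spindle genes and 4 of 16 condensin and cohesin genes fell, and 2 of 10 kinases, 2 kinetochore genes and 2 spindle genes rose. Cenpp fell by 0.78 ± 0.20, Knstrn by 0.82 ± 0.08 and Ncapg by 0.83 ± 0.11. The kinesin Kif18b rose by 1.00 ± 0.11 with siHnrnpk and by 0.62 ± 0.11 with siLincp21. In the lincP21KD experiment siLincP21, with 7.47% of all genes higher and 4.39% lower, raised 4 of 31 kinetochore genes, led by Zwint (0.97 ± 0.09), and lowered 1, Cenpb (-0.75 ± 0.11). There 2 of the 10 kinases rose, Wee1 (0.60 ± 0.11) and Nek9 (0.46 ± 0.10). With so few calls, nothing is read from the counts of these 2 lists.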

How the data were processed

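The authors deposited log2 values from RMA, as the submitters' processing notes name it (version: not given in the sources used here), and these were used unscaled. Of 45101 probe sets 34958 map to 1 gene symbol, 932 to several and 9211 to none. Each of 18194 genes was read from its probe set with the highest mean. A filter removed genes whose mean lay in the bottom 40% of all probe sets (limit log2 4.54), leaving 12675 genes.

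limma 3.58.1 (R 4.3.3, lmFit and eBayes) was fitted to all genes in 13 comparisons, with time as a block between the viruses. p-values were Benjamini-Hochberg adjusted over all tested genes, and a call is an adjusted p below 0.05. Values after ± are standard errors and intervals cover 95%. The fit was tested on simulated data. Where numbers of arrays are small, they limit the precision. Members and lists were chosen with earlier results of these data known. Genes were named by the size of change or, where under 4 were called, by smallest p. Replicate numbers are not said to pair arrays. Same-numbered arrays correlated over 0.1 in all 3 pairs for siHnrnpk and its controls (0.216, 0.166 and 0.209), and there the block gave 25 falls against 23. Alternatives covered the filter, scaling, variances, probe sets, the blocks and leaving out arrays.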

Additional observations from a re-analysis of the deposited data

Results flagged for a closer look

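A pair of patterns met the criterion for a closer look, a change that differed between the experiments under the same knockdown by a direct test of the difference. No group had the 4 arrays needed for the test of single outlying samples. No explanation was weighed.

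The siP53 change was larger in the hnRNPKKD than in the lincP21KD experiment for 27 members and more negative for 1. The differences on the log2 scale were 1.14 for Ect2, 1.00 for Kif11, 0.829 for Nek2, 0.79 for Mki67, 0.776 for Racgap1, 0.766 for Kif4, 0.76 for Bub1, 0.756 for Aurkb, 0.705 for Cenpk and 0.645 for Mad2l1. For Gtse1 the difference was -1.39. The Cenpk difference was 0.15 and not called when its probe sets were averaged.

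The siLincp21 change was lower in the hnRNPKKD experiment for 27 members. The differences were -1.31 for Aurka, -1.03 for Cenpf, -0.943 for Bub1b, -0.934 for Top2a, -0.931 for Kif20a, -0.904 for Plk1, -0.861 for Ttk, -0.836 for Kif2c, -0.834 for Ndc80 and -0.671 for Kif23. Bub1b lost its call without either siScramble array, Aurka and Kif2c without replicate 2 and Cenpf without replicate 1.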

How the results depend on the processing

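No called member changed sign in any of the 13 comparisons under any alternative tried. Members that were not called did so, such as Spc25 between the viruses (0.03, from -0.10 to 0.14, negative with centred arrays, quantile scaling, averaged probe sets or without the 6 h pair) and, when an array was left out, Nek2 (-0.02, from -0.16 to 0.18) with siLincp21 and Kif15 (-0.04, from -0.18 to 0.05) with siP53 in the hnRNPKKD experiment. Members lower between the viruses numbered 18, 30 with centred arrays, 1 without the time block, and 4 to 14 when a pair was left out. In AdenoCRE slopes the 1 rise became 0 without the filter, the 1 fall became 0 on log2 hours, and each ranged from 0 to 1 without a pair. In the lincP21KD experiment, siP53 rises were 19, 34 with the replicate block and 30 with trend and robust variances, and 5 to 26 when an array was left out. siLincP21 rises were 6, 14 with the replicate block and 1 to 7 without an array. Members higher with siP53 than siLincP21 were 8, 17 with centred arrays, 19 with the replicate block, 13 with trend and robust variances and 2 to 18 without an array. There the numbers are not shown to pair arrays: of the numbers both groups have, 0 of 2 correlated best with their own for siP53 and siScramble, 2 of 2 for siLincP21 and 3 of 3 between the knockdowns. The block moved no count of the hnRNPKKD experiment by over 1.5 times. Its siLincp21 and siHnrnpk rises, 0 each, ranged from 0 to 1 without an array. When an array was left out, the siP53 difference between experiments ranged from 11 to 32 rises and the siLincp21 difference from 12 to 25 falls, against 27 each with all arrays, and the counts of 37 and 42 from 36 to 39 and 41 to 42. The causes were not tested. Kif15 lies near the limit and Kif14 below it, where a fall is hard to measure, and 2 controls or 1 array a time limit the precision.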

Other observations

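Genes of the DREAM and MuvB complexes, which bind the promoters of many mitotic genes, were measured too. Of 12 tested, 3 were lower in AdenoCRE cells and none higher (all genes: 6.24% and 12.9%), with Lin54 at -0.87 ± 0.15 and Lin9 at -0.78 ± 0.18. With siP53 in the hnRNPKKD experiment 4 rose and 3 fell (all genes: 19.3% and 19.2%), with Lin9 at 1.24 ± 0.23 and E2f5 at -1.28 ± 0.13. E2f5 also fell with siP53 in the lincP21KD experiment, by 0.71 ± 0.08, as the 1 call of this list there. Tfdp1, the partner of E2F proteins, fell by 0.95 ± 0.09 with siLincp21 and by 1.12 ± 0.09 with siHnrnpk in the hnRNPKKD experiment. It was named for the size of its change (all genes: 11.8% and 12.8% lower). The counts of the list are not given for these knockdowns, so nothing is read from it about the other genes.

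Across the 44 tested members, the siP53 changes of the experiments, which share no arrays, had a Pearson r of 0.87 and a Spearman rho of 0.63. Gtse1 lies far from the rest, and without it, a choice made after its values were seen, r was 0.71 and rho 0.61. Between the virus effect and the siP53 change of the hnRNPKKD experiment r was -0.85 and rho -0.57, or -0.56 and -0.54 without Gtse1. With the siP53 change of the lincP21KD experiment r was -0.71 and rho -0.45, or -0.25 and -0.41 without Gtse1. The siLincp21 changes of the experiments had an r of 0.47 and a rho of 0.30, with 33 members of opposite sign, a count without a share of all genes beside it. These are correlations across genes, which are not independent replicates.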
